A study of Mus musculus with 48 samples.

Results

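The genes described here are 9 markers of leptomeningeal fibroblasts, measured in the substantia nigra (SN) of mice by RNA sequencing (RNA-seq): Dcn, Lum, Ogn, Igf2, Slc6a13, Slc22a6, Slc22a8, Ptgds and Aldh1a2. They were chosen by symbol, and all 9 were found among the 55385 genes measured in 48 mice and among the 19601 protein-coding genes of the batch-corrected tables of 42 mice. The mice were male C57BL/6J animals that received α-synuclein monomer or α-synuclein preformed fibrils (PFF) in the right striatum at 121 days of age and then breathed 21% or 11% O2. Each of the 4 groups held 12 mice, of which the authors kept 11 for monomer at 21% O2, 12 for PFF at 21% O2, 9 for monomer at 11% O2 and 10 for PFF at 11% O2. The SN was taken 90 or 91 days after injection, except from replicate 11 of monomer at 11% O2, which was taken after 98 days. The sources differ on the timing of 11% O2: the sample protocol gives it from injection to harvest, and the study's design text starts it midway. The paper describes 11% O2 from shortly after injection for an experiment with these 4 groups. Its experiment with a delayed start had no monomer mice at 11% O2. The mice were harvested in 3 batches, which also differed in birth and injection dates. Batch 2 held no mouse of monomer at 11% O2 and batch 3 none of monomer at 21% O2, so that batch 1 alone held monomer mice at both O2 levels.

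The leptomeninges are the arachnoid and pia, the thin membranes on the brain surface and around penetrating vessels. Their fibroblasts lay down collagen and proteoglycans, make retinoic acid and growth factors, and carry transporters that move organic anions and neurotransmitters between cerebrospinal fluid and blood. Several of the 9 genes are not exclusive to these cells: Ptgds is strongly expressed in oligodendrocytes, Slc22a8 in brain endothelium and choroid plexus, and Igf2 in choroid plexus. A bulk sample cannot tell fewer cells of a type from less RNA per cell.

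The tissue held its labelled marker transcripts. The median level over the 42 mice was 582.7 TPM (transcript abundance scaled to transcript length and library size) for Th, the rate-limiting enzyme of dopamine synthesis, and 1022 TPM for Slc6a3, the dopamine transporter. All 25 other meningeal fibroblast genes on the list used here passed the filter on low counts, with a summed level of 564.6 to 1311 TPM per mouse. Most of that sum was 1 gene, Apod, with a median of 608.0 TPM against 823.7 TPM for the sum. Library totals were 12902996 to 17120921 counts in the 42 mice.

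Levels of the 9 genes are described first, as TPM before batch correction over the 42 mice. Ptgds, which makes prostaglandin D2, had by far the highest level, with a median of 1079 TPM and a range of 688.2 to 1962 TPM. The organic anion transporter Slc22a8 (OAT3) followed with a median of 17.14 TPM, the GABA transporter Slc6a13 (GAT2) with 14.22 TPM, the retinoic acid synthesis enzyme Aldh1a2 with 12.51 TPM and the proteoglycan decorin (Dcn) with 12.33 TPM. The proteoglycans osteoglycin (Ogn) and lumican (Lum) had medians of 5.985 TPM and 3.348 TPM. Slc22a6 (OAT1), a second organic anion transporter, had a median of 3.16 TPM, and Igf2, an insulin-like growth factor, had 0.7495 TPM.

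This order held within every mouse for some neighbours only. Ptgds was above Slc22a8, Dcn above Ogn, and Slc22a6 above Igf2 in 42 of 42 mice, and Ogn was above Lum in 41. Slc6a13 was above Aldh1a2 in 32 mice, Slc22a8 above Slc6a13 in 30, and Lum above Slc22a6 in 27. Aldh1a2 was above Dcn in 18 of 42 mice, so these 2 levels had no stable order. Igf2 was below 1 TPM in 27 mice, with 3 reads in the mouse with one of the lowest levels, replicate 4 of monomer at 21% O2.

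Beyond group and batch differences, these genes varied more between mice than most. The biological coefficient of variation, the spread between mice beyond counting error in the edgeR fit, was 8.219% for the median gene. It was 15.98% for Slc22a8, 20.75% for Ptgds, 31.74% for Dcn and 41.01% to 55.42% for the other 6 genes, with the highest value for Igf2. Relative to genes of like abundance, the spread of Slc22a8 was at percentile 92.04 of 14793 genes, and those of the other 8 genes were at percentiles 97.65 to 99.37.

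**Figure D1:**
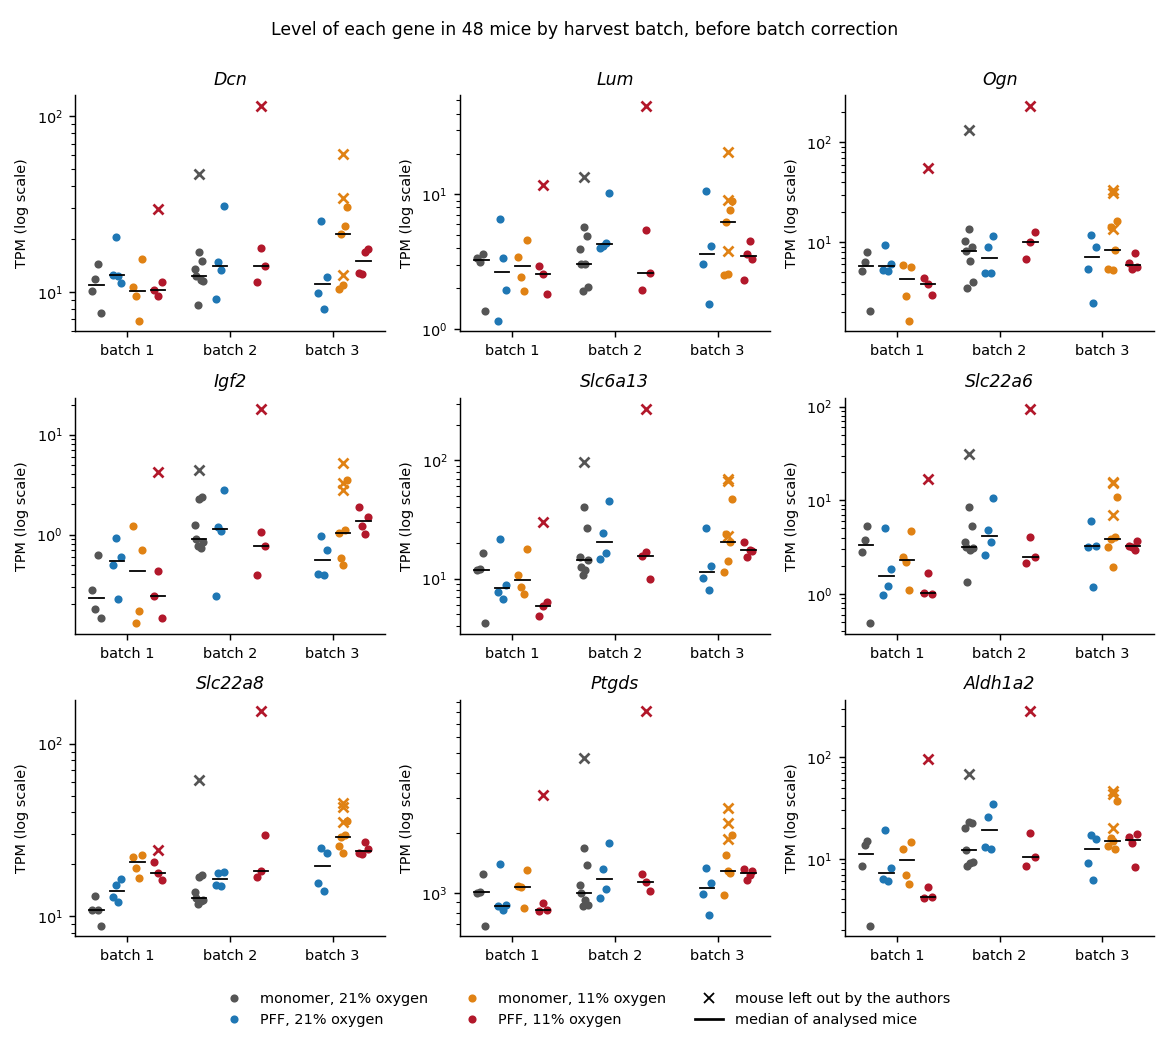
TPM before batch correction (log scale) of each of the 9 genes in 48 mice, by harvest batch on the x axis and by group in colour. Points are analysed mice, lines are medians of a group in a batch, and crosses are the 6 mice left out by the authors; the highest cross of every gene is replicate 5 of PFF at 11% O2.

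The genes lie on 7 chromosomes, with 2 neighbouring pairs. In the GENCODE annotation of GRCm38, Dcn (chr10:97479609-97518143) and Lum (chr10:97565128-97572703) are 46984 bases apart on the plus strand, with 0 protein-coding genes between them. Slc22a8 (chr19:8591254-8611835) and Slc22a6 (chr19:8618039-8628299) are 6203 bases apart on the plus strand, again with 0 protein-coding genes between. Ogn (chr13:49608046-49624501, plus strand) overlaps Cenpp on the opposite strand, and Igf2 (chr7:142650766-142666816, minus strand) overlaps Gm49394 and Mir483 on its own strand and Igf2os on the other. On the opposite strand Slc6a13 overlaps Gm24855, a microRNA gene, and Aldh1a2 overlaps Gm48124, a pseudogene. Counting ignored strand, so reads in sequence shared with these neighbours are uncertain, and how much exon sequence is shared was not measured. Slc6a13 is at chr6:121300227-121337733 (plus), Ptgds at chr2:25466709-25470046 (minus) and Aldh1a2 at chr9:71215789-71296243 (plus).

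Slc22a8 and Slc22a6 are adjacent transporter genes of 1 family, so the 250 bases before their start sites are shown, from RefSeq (GRCm38.p6), 5′ to 3′ on the plus strand, at chr19:8592932-8593181 and chr19:8617746-8617995. Capitals mark GTTAAT, one arm of the palindrome bound by HNF1 factors, which are known regulators of both genes in kidney. The window of Slc22a8 lies within the annotated span of that gene, and that of Slc22a6 lies before the annotated start of its gene. Overlap of either window with exons was not measured.
Slc22a8: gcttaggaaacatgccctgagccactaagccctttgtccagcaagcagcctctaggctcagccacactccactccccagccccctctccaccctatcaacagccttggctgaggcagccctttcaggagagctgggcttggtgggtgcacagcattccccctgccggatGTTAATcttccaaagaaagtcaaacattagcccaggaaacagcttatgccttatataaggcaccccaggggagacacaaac
Slc22a6: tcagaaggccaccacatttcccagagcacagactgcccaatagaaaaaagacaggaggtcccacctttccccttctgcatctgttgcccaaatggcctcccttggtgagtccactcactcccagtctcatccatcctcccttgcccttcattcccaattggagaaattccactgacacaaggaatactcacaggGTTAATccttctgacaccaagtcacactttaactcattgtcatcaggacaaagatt
The motif began 81 bases before the start of Slc22a8 and 56 bases before that of Slc22a6. Searched on both strands of the 300-base windows (250 before and 50 after the start), GTTAAT was found in 7.1% of 32851 windows, and in 3 of the 12 windows that 7 of the 9 genes had, the third being a window of Slc6a13. The hypoxia response element core, ACGTG or GCGTG, was in neither window shown; it was in 3 of the 12 windows, 1 each of Igf2, Slc6a13 and Aldh1a2, against 43.8% of all windows. The forkhead core GTAAACA was in 0 of the 12 windows, against 3.65% of all. A match is a description of the letters, not of binding.

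The effect of breathing 11% O2 was first compared in monomer mice, and Slc22a8 was the 1 gene of the 9 that was called. Calls needed an adjusted p (Benjamini-Hochberg, all 14839 genes tested, edgeR quasi-likelihood test) under 0.05 and a log2 fold change above 0.25 in size; 7.23% of all genes were called, and 4.68% were called higher. In batch-corrected TPM, Slc22a8 was at 11.9 to 18.71 (median 13.95) in the 11 monomer mice at 21% O2 and at 21.23 to 32.94 (median 26.63) in the 9 at 11% O2. In these corrected values every mouse at 11% O2 was above every mouse at 21% O2. The correction was given the groups, and before it they overlapped, with up to 17.3 TPM at 21% O2 and from 16.63 TPM at 11% O2. The corrected means were 14.57 ± 2.321 (SD, n = 11) and 26.02 ± 3.673 (SD, n = 9), and the log2 fold change was 0.84 (SE 0.105, edgeR adjusted p = 3.14e-07).

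Within batch 1, the only batch with monomer mice at both O2 levels, the 4 monomer mice at 21% O2 had 10.83, 13.08, 10.96 and 8.849 TPM of Slc22a8 before correction, and the 4 at 11% O2 had 22.07, 19.04, 16.63 and 22.65 TPM. Within this batch the groups did not overlap. The log2 fold change in batch 1 was 0.87 (SE 0.178, unadjusted edgeR p = 1.9e-05). The call remained in each of the 11 alternative settings and with each of the 42 mice left out in turn, where the log2 fold change was 0.79 to 0.88.

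**Figure D2:**
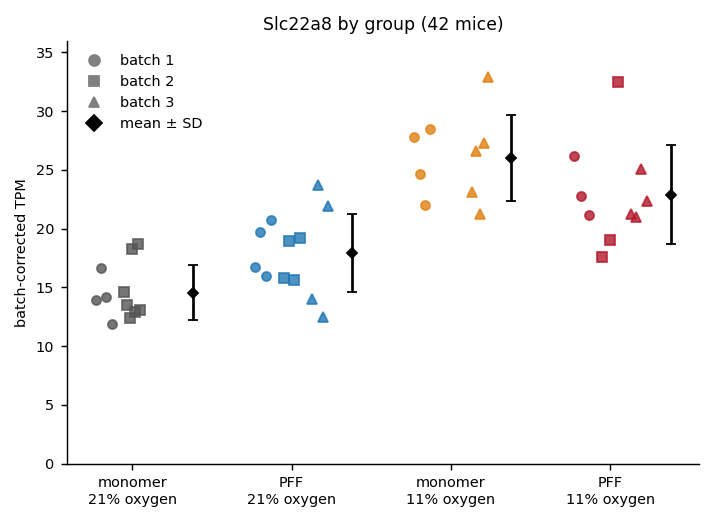
Batch-corrected TPM of Slc22a8 in 42 mice, by group on the x axis; symbols give the harvest batch, and diamonds with bars are the mean ± SD. The monomer mice at 11% O2 sit at 21.23 to 32.94 TPM, all above the monomer mice at 21% O2, while both PFF groups overlap.

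For the other 8 genes the estimates in monomer mice were also above 0 but did not pass the test, and the O2 groups overlapped. Lumican (Lum) had 1.128 to 6.943 batch-corrected TPM at 21% O2 and 1.139 to 11.79 at 11% O2, with a log2 fold change of 0.62 (SE 0.377, edgeR adjusted p = 0.29). Decorin (Dcn) had 6.233 to 18.52 and 7.423 to 32.9 TPM, with a log2 fold change of 0.46 (SE 0.254, edgeR adjusted p = 0.233), which was -0.05 in batch 1 alone. Ptgds had 754.0 to 1806 and 874.1 to 2205 TPM, with a log2 fold change of 0.31 (SE 0.151, edgeR adjusted p = 0.166). Slc6a13 was at 0.36 (SE 0.430), Ogn at 0.33 (SE 0.370), Aldh1a2 at 0.23 (SE 0.449) and Slc22a6 at 0.19 (SE 0.487). In the separate fit of batch 1 alone Ogn and Slc22a6 were at -0.43 and -0.25, so that in that fit the sign turned for 3 of these 8 genes. Igf2 had the smallest estimate, 0.09 (SE 0.518). The median over the 9 genes was 0.33, against -0.01 for all genes tested. The estimates behind it draw on mice of all 3 batches. In the fit that gave 0.87 for Slc22a8 within batch 1, Ogn was at -0.435, Slc22a6 at -0.253, Dcn at -0.057 and Aldh1a2 at -0.00015. There Slc6a13 was at 0.0016, Lum at 0.09, Ptgds at 0.12 and Igf2 at 0.83.

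Other cell type lists moved in the same comparison, and their part in the Slc22a8 result was not tested. Of 8 endothelial genes 6 were called higher, with the smallest p for Cldn5 (claudin-5, a tight junction protein), with a log2 fold change of 0.74, followed by Pecam1 with 0.65 and Flt1 with 0.52. Of 8 pericyte genes 7 were called higher, led by Abcc9 (0.61), Pdgfrb (0.51) and Kcnj8 (0.57). Before correction, the summed endothelial level was 300.1 to 510.8 TPM in monomer mice at 21% O2 and 391.7 to 889.1 TPM at 11% O2, and the summed pericyte level had medians of 248.4 and 333.2 TPM. These sums mix O2 with batch: the monomer mice at 21% O2 came from batches 1 and 2 and those at 11% O2 from batches 1 and 3, and the mean endothelial sum was 396.8, 455.3 and 636.2 TPM in batches 1, 2 and 3. Within batch 1 the endothelial sum was 300.1 to 389.0 TPM in the 4 monomer mice at 21% O2 and 391.7 to 485.4 TPM in the 4 at 11% O2. Of the 25 other meningeal fibroblast genes, 2 were called higher: Dpp4, a surface peptidase, with 0.89 and Mgp, an inhibitor of calcification, with 1.00; their median was 0.32. Arterial smooth muscle had 2 of 4 tested genes called higher (Myl9 0.67 and Acta2 1.51) and mature oligodendrocytes 3 of 9 (Opalin 0.71, Mog 0.32 and Cnp 0.26), while 0 genes were called on the astrocyte, microglia and border macrophage, choroid plexus and dopaminergic neuron lists. The summed level of the 25 other meningeal fibroblast genes, of which Apod is the largest part, was 564.6 to 1049 TPM at 21% O2 and 653.2 to 1311 TPM at 11% O2. Within batch 1 it was 564.6 to 951.3 and 653.2 to 906.2 TPM.

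In PFF mice the same O2 comparison called 0 of the 9 genes, with 0.58% of all genes called and 0.438% called higher. Unadjusted edgeR p was under 0.05 for 1 of the 9, Slc22a8, and for 10.7% of all genes tested. DESeq2 called 1 of the 9, also Slc22a8, and its share over all genes is not given here. Slc22a8 had 12.48 to 23.71 batch-corrected TPM (median 17.86) in the 12 PFF mice at 21% O2 and 17.59 to 32.48 (median 21.83) in the 10 at 11% O2. The 2 groups overlapped, and the log2 fold change was 0.36 (SE 0.0994, edgeR adjusted p = 0.0761). Within batches 1, 2 and 3 it was 0.35, 0.42 and 0.31. The call was gained when replicate 10 of PFF at 21% O2 was left out.

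Of the other 8 genes in PFF mice, 7 had estimates below 0: -0.50 (SE 0.478) for Slc22a6, -0.48 (SE 0.370) for Lum, -0.34 (SE 0.419) for Slc6a13, -0.32 (SE 0.436) for Aldh1a2, -0.10 (SE 0.243) for Dcn, -0.07 (SE 0.359) for Ogn and -0.0036 (SE 0.144) for Ptgds. Igf2 was at 0.05 (SE 0.515). Fitted before correction in 48 mice, with batch in the model, these 7 genes were above 0, at 0.46 to 1.47. That fit adds replicates 2 and 5 of PFF at 11% O2, which the authors left out. In replicate 5 the 9 genes were at 7.13 to 39.0 times the median of its group and batch. Of the other meningeal fibroblast genes 1 of 25 was called higher, Dpp4 with 0.85, and their median was -0.05. The endothelial list had 2 of 8 called higher (Flt1 0.53 and Cldn5 0.47), and the pericyte list 3 of 8 (Abcc9 0.58, Higd1b 0.53 and Kcnj8 0.34).

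The effect of PFF was compared at each O2 level. At 21% O2, 1 of the 9 genes was called, again Slc22a8, with 3.7% of all genes called and 2.29% called higher. Its 11.9 to 18.71 batch-corrected TPM in monomer mice overlapped the 12.48 to 23.71 TPM in PFF mice; the means were 14.57 ± 2.321 (SD, n = 11) and 17.92 ± 3.345 (SD, n = 12). The log2 fold change was 0.32 (SE 0.0996, edgeR adjusted p = 0.0414), and it was 0.40 in batch 1 and 0.25 in batch 2, the batches that held both groups.

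That call was not stable. It was lost in 6 of 11 alternative settings and when any 1 of 13 mice was left out: replicates 1, 3, 4, 5, 6, 7, 9 and 12 of monomer at 21% O2 and replicates 4, 6, 8, 10 and 12 of PFF at 21% O2. Without 1 mouse the estimate stayed at 0.27 to 0.36. Among the other 8 genes the estimates were 0.42 (SE 0.358) for Lum, 0.29 (SE 0.239) for Dcn, 0.18 (SE 0.405) for Slc6a13, 0.17 (SE 0.455) for Slc22a6, 0.16 (SE 0.420) for Aldh1a2, 0.10 (SE 0.349) for Ogn, 0.07 (SE 0.141) for Ptgds and -0.20 (SE 0.495) for Igf2. Of the 25 other meningeal fibroblast genes 0 were called. Of the choroid plexus genes 1 of 10 was called higher (Sostdc1, 0.70) and of the mature oligodendrocyte genes 1 of 9 (Opalin, 0.60).

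At 11% O2, PFF and monomer mice had 0 of the 9 genes called by edgeR, and 0 of the 14839 genes tested. At an unadjusted edgeR p under 0.05 there were 0 of the 9 and 581 of all genes, and DESeq2 called 0 of the 9 and 1 of all. All 9 estimates were below 0: -0.17 (SE 0.105) for Slc22a8, -0.24 (SE 0.537) for Igf2, -0.24 (SE 0.155) for Ptgds, -0.28 (SE 0.259) for Dcn, -0.30 (SE 0.379) for Ogn, -0.38 (SE 0.463) for Aldh1a2, -0.52 (SE 0.508) for Slc22a6, -0.52 (SE 0.444) for Slc6a13 and -0.68 (SE 0.389) for Lum. The 2 comparisons of PFF with monomer and the 2 of O2 levels share mice, so that their estimates were not independent.

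Whether the O2 effect differed between monomer and PFF mice was tested as an interaction term, which called 0 of the 9 genes, with 2.14% of all genes called and 1.1% called higher. For Slc22a8 the interaction was -0.49 (SE 0.145) on the log2 scale, from 0.84 in monomer mice and 0.36 in PFF mice, and missed the threshold (edgeR adjusted p = 0.0596). It was called by DESeq2, and by edgeR when any 1 of 8 mice was left out: replicates 8 and 11 of monomer at 21% O2, 9 and 11 of PFF at 21% O2, 3 and 7 of monomer at 11% O2, and 1 and 8 of PFF at 11% O2. Lum had the largest estimate of the 9, -1.10 (SE 0.529, edgeR adjusted p = 0.303), and Igf2 the smallest, -0.03 (SE 0.734). The others were -0.70 (SE 0.601) for Slc6a13, -0.69 (SE 0.681) for Slc22a6, -0.57 (SE 0.352) for Dcn, -0.55 (SE 0.626) for Aldh1a2, -0.40 (SE 0.515) for Ogn and -0.32 (SE 0.209) for Ptgds. On the other lists the interaction was called for the pericyte gene Pdgfrb (-0.39) and the oligodendrocyte genes Opalin (-0.71) and Mog (-0.33).

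**Figure D3:**
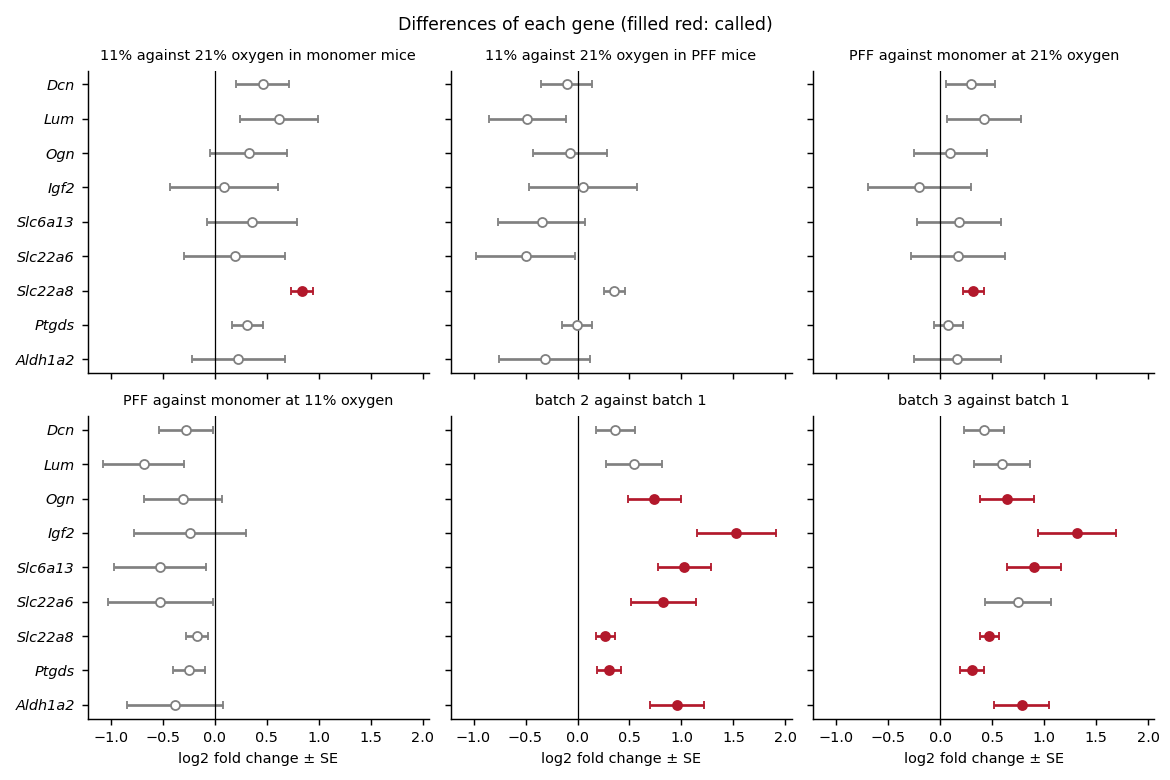
Log2 fold change ± SE of the 9 genes in 6 comparisons; filled red points were called and open grey points were not. Slc22a8 is the 1 gene called in the comparisons of O2 and injection, at 0.84 and 0.32, whereas 7 and 6 genes were called between harvest batches.

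Harvest batches were compared on counts before correction, with group as a covariate. Of the 9 genes, 7 were called higher in batch 2 than in batch 1 and all 9 estimates were above 0, with 8.65% of 14793 genes called and 5.54% called higher. Aldh1a2 had 2.201 to 19.26 TPM (median 6.991) in the 15 mice of batch 1, 8.488 to 34.9 (median 12.77) in the 14 of batch 2 and 6.165 to 36.6 (median 15.1) in the 13 of batch 3. Slc6a13 had 4.194 to 21.4 TPM (median 8.516) in batch 1, 9.989 to 45.03 (median 15.36) in batch 2 and 8.067 to 46.63 (median 17.22) in batch 3. The batches overlapped for both genes, with the lowest mice in batch 1.

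Igf2 rose most, by 1.53 (SE 0.382) on the log2 scale from batch 1 to batch 2 and by 1.31 (SE 0.375) to batch 3, with edgeR adjusted p of 0.00416 and 0.00681. Its medians were 0.2809, 0.9885 and 1.005 TPM. Slc6a13 rose by 1.03 (SE 0.257) and 0.90 (SE 0.262), and Aldh1a2 by 0.96 (SE 0.259) and 0.78 (SE 0.265). These 3 genes were called in both comparisons.

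Ogn (0.74 and 0.64), Ptgds (0.30 and 0.30) and Slc22a8 (0.27 and 0.47) were also called in both. The call of Ptgds changed in 4 of 5 alternative settings in each comparison and was lost in 22 and 17 of 42 fits that left out 1 mouse. The call of Ogn in batch 3 changed in 4 of 5 settings and was lost in 22 of 42 such fits. Slc22a6 was called in batch 2 (0.83, edgeR adjusted p = 0.0422) and not in batch 3 (0.75, edgeR adjusted p = 0.0603); the call in batch 2 was lost in 14 of the 42 fits. The proteoglycans Dcn (0.36 and 0.42) and Lum (0.55 and 0.59) were called in neither. Batch 3 against batch 1 thus had 6 of the 9 genes called higher, with 12.8% of all genes called and 7.8% called higher.

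The counts depended on single mice. Batch 2 against batch 1 had 3 genes called without replicate 4 of monomer at 21% O2 and 4 without replicate 11 of that group; batch 3 against batch 1 had 3 called without replicate 11 of monomer at 11% O2. All 9 estimates stayed above 0 in both comparisons with any 1 of the 42 mice left out. Between PFF mice at 21% O2 alone, 4 a batch, 0 of the 9 genes were called in either comparison. With all 48 mice 0 of the 9 were called between batches 3 and 1. The share of all genes called in these settings is not given here, so these counts cannot be read as particular to the 9 genes. Batch 3 against batch 2 had 0 of the 9 genes called, and 0 of the 14793 genes tested, with 958 at an unadjusted edgeR p under 0.05; its estimates were -0.21 (SE 0.401) for Igf2, -0.17 (SE 0.290) for Aldh1a2, -0.12 (SE 0.287) for Slc6a13, -0.10 (SE 0.284) for Ogn, -0.08 (SE 0.344) for Slc22a6, 0.0020 (SE 0.134) for Ptgds, 0.05 (SE 0.297) for Lum, 0.06 (SE 0.213) for Dcn and 0.20 (SE 0.104) for Slc22a8. DESeq2 and limma also called 0 of the 9 genes in it.

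The lists of other genes differed between batches too, and their part in these results was not tested. Of the 25 other meningeal fibroblast genes, 20 were called higher in batch 2 than in batch 1, led by the transporter Slc47a1 (1.97) with the matrix genes Col1a1 (0.76) and Bgn (0.76), and 14 were called higher in batch 3, led by Slc13a3 (0.38), Tbx18 (0.65) and Aebp1 (0.51). Of 8 endothelial genes 6 were called higher in batch 2 (first Cldn5 0.55, Cdh5 0.59 and Slc2a1 0.31) and 8 in batch 3 (first Cldn5 0.93, Cdh5 0.99 and Flt1 0.78). Of 8 pericyte genes 5 were called higher in each (first Pdgfrb 0.37, Abcc9 0.30 and Vtn 0.50 in batch 2, and Abcc9 0.50, Kcnj8 0.51 and Pdgfrb 0.45 in batch 3). Of 4 arterial smooth muscle genes 2 were called higher in batch 2 (Myh11 0.60 and Myl9 0.37) and 4 in batch 3 (first Myh11 1.22, Myl9 0.72 and Mylk 0.49). Of 8 microglia and border macrophage genes 4 and 3 were called higher, first Cx3cr1 (0.45 and 0.46), Csf1r (0.37 and 0.35) and Tmem119 (0.36 and 0.38), and of 5 astrocyte genes 1 in each, Gfap (0.39 and 0.48). Of 5 dopaminergic neuron genes 0 were called in batch 2 and 4 were called lower in batch 3, among them Slc18a2 (-0.68), Ddc (-0.56) and Slc6a3 (-0.59). The summed level of the 5 dopaminergic genes was 1823 to 4445 TPM in batch 1, 1091 to 3520 in batch 2 and 823.4 to 3242 in batch 3. Choroid plexus genes had 1 of 10 called higher in batch 2 (Kl, 0.70) and 1 of 10 called lower in batch 3 (Sostdc1, -0.62).

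The pathways of single genes were read against the share called higher over all genes. In monomer mice at 11% O2, where that share was 4.68%, 1 of 9 small leucine-rich proteoglycan genes was called higher (Podn, podocan, 1.25), 0 of 12 retinoic acid genes, 1 of 10 prostaglandin genes (Ptgs1, cyclooxygenase 1, 0.40), 1 of 10 insulin-like growth factor genes (Igfbp7, 0.60), and 2 of 9 GABA and organic anion carriers (Slco1a4, 0.48, and Slco1c1, 0.29). In PFF mice 0 genes of these 5 lists were called between O2 levels. PFF at 21% O2 had 1 carrier called higher, Slco1a4 with 0.45. In batch 2 against batch 1, where 5.54% of all genes were called higher, 5 of 9 proteoglycan genes (first Bgn 0.76, Prelp 0.55 and Omd 0.72), 3 of 12 retinoic acid genes (Rara 0.30, Crabp2 0.88 and Stra6 0.92), 1 of 10 prostaglandin genes (Ptgs1 0.33) and 3 of 9 carriers (Slc6a12 1.57, Slc47a1 1.97 and Abcc4 0.31) were called higher. Of 10 insulin-like growth factor genes 2 were called higher (Igfbp7 0.46 and Igfbp6 1.06) and 1 lower, Igf1 with -0.45. Slc6a12 is another GABA and betaine transporter, and Igf1 is the growth factor related to Igf2. In batch 3 against batch 1, where 7.8% of all genes were called higher, the counts called higher were 3 of 9 proteoglycan genes (Prelp 0.54, Bgn 0.62 and Fmod 0.80), 2 of 12 retinoic acid genes (Dhrs3 0.27 and Crabp2 0.73), 2 of 10 prostaglandin genes (Ptgs1 0.30 and Ptgdr 0.62), 1 of 10 insulin-like growth factor genes (Igfbp7 0.84) and 4 of 9 carriers (first Slc6a12 1.499, Abcc4 0.41 and Slco1c1 0.42). Called lower were Ptger3 (-0.68) of the prostaglandin list and Igf1 (-0.65) of the growth factor list.

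The 9 genes rose and fell together from mouse to mouse. Correlations were taken over the 42 mice on log2(TPM + 0.1), centred on the mean of each group within each batch, so that group and batch differences were removed. All 36 pairs were positive, with Pearson's r from 0.593 for Lum with Igf2 to 0.954 for Slc6a13 with Ptgds and a median of 0.794. All 36 had an adjusted p under 0.05 for r and for Spearman's rho (permutation test, 2-sided, 100000 permutations within group and batch, adjusted over 36 pairs); the smallest unadjusted p that these permutations can give is 1e-05. Every pair was positive within each batch as well, with medians of 0.795, 0.798 and 0.825 in batches 1, 2 and 3. Without the 2 mice farthest from the median the median r was 0.766. The 2 values of a pair come from 1 library, and the median r of each of the 9 genes with all 14784 genes tested was near 0, between -0.00758 and 0.0384.

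Among the neighbours in the genome, Dcn and Lum had r = 0.874 and rho = 0.875 (permutation p = 1e-05 for both), and Slc22a8 and Slc22a6 had r = 0.661 and rho = 0.697. Slc22a8 had the weakest ties, with a median r of 0.637 to the other 8 genes, against 0.817 over the 28 pairs without it. Its highest r was 0.811, with Ogn.

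**Figure D4:**
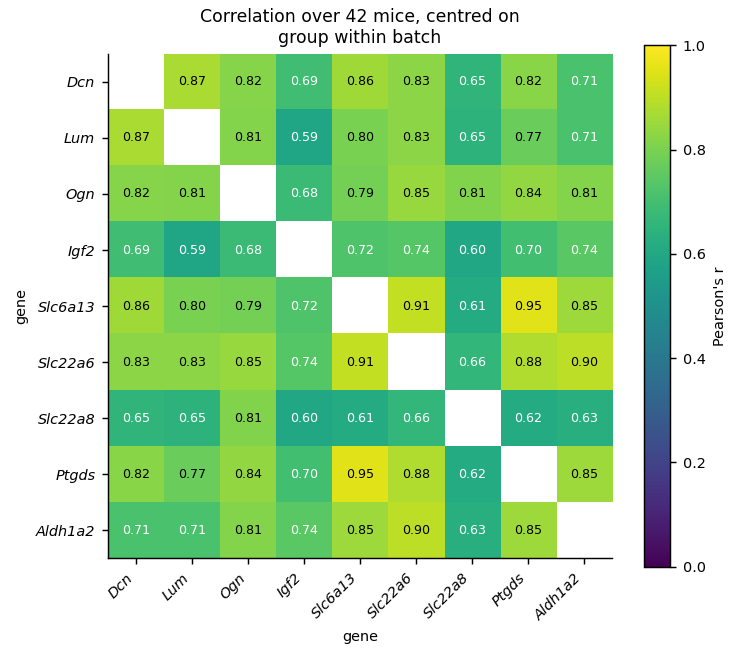
Pearson's r between the 9 genes over 42 mice, on log2(TPM + 0.1) centred on each group within each batch; brighter squares are higher r. Slc6a13 with Ptgds is the highest at 0.954, and the row of Slc22a8 is at 0.598 to 0.661 except with Ogn, where it is 0.811.

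The genes most like each of the 9 were named by r over the same 42 mice, as a description among 14784 genes. Slc6a20a, a proline transporter, was among the 3 most alike for 5 of the 9 genes, with r = 0.965 to Slc6a13 and 0.926 to Ptgds. Slc13a4, a sulfate transporter, was among the 3 most alike for Slc22a6 (0.955), Slc6a13 (0.936), Aldh1a2 (0.931) and Ptgds (0.913). Fibromodulin (Fmod) was closest to Aldh1a2 at 0.943, and Vtn, which is on the pericyte list, and Serping1 to Dcn at 0.924 each. Ranbp3l was closest to Lum at 0.872, Srgn to Ogn at 0.902 and the gap junction gene Gjb2 to Igf2 at 0.84. For Slc22a8 the 3 were Abcb1a (0.843), the efflux pump of brain endothelium, Itm2a (0.836), which is on the endothelial list, and Arhgap29 (0.822). Arhgap29 was also among the 3 most alike for Ogn, at 0.898.

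Each of the 9 genes was also set against whole lists. The median r with the 25 other meningeal fibroblast genes was 0.684 to 0.806 for 8 of the 9 genes and 0.609 for Slc22a8, and all 25 were positive for every one of the 9. With the 8 endothelial genes the median r was 0.665 for Slc22a8, 0.68 for Ogn and 0.456 to 0.636 for the other 7. Other lists rose with these genes too. For Dcn, Lum, Ogn, Igf2, Slc6a13, Slc22a6 and Slc22a8, the median r with arterial smooth muscle genes was 0.501 to 0.771. For the same genes it was 0.485 to 0.653 with microglia and border macrophage genes, 0.352 to 0.574 with astrocyte genes and 0.266 to 0.581 with pericyte genes. With the 9 mature oligodendrocyte genes it was highest for Ptgds, 0.434, and lowest for Slc22a8, 0.135. With the 5 dopaminergic neuron genes it was -0.361 to -0.512, and 0 of 5 were positive for each of the 9. With the 10 choroid plexus genes it was -0.0517 to 0.0262, but single genes of that list ran both ways. Their r was -0.499 to 0.741 for Slc6a13 and -0.529 to 0.628 for Slc22a6, with 5 of 10 positive for each.

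The number of genes above the mean of their group and batch was counted in each mouse. Leaving out Slc22a8, 10 of the 42 mice had all 8 genes above the mean of their group and batch, and 10 had 0 of 8 above it. A further 9 mice had 7 or 1 of 8 above, and 13 mice had 2 to 6. The mean deviation of the 8 genes ran from -1.10 on the log2 scale in replicate 4 of monomer at 21% O2 to 1.04 in replicate 11 of monomer at 11% O2. The latter mouse, the one harvested 98 days after injection, was among the 5 highest of 42 mice for 9 of the 9 genes, with 36.6 TPM of Aldh1a2, 46.6 TPM of Slc6a13 and 1962 TPM of Ptgds.

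**Figure D5:**
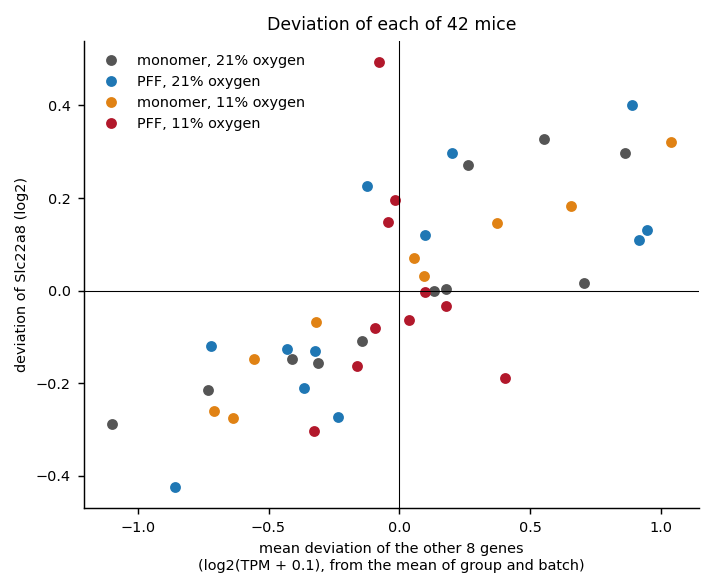
Deviation of each of 42 mice from the mean of its group and batch, as the mean over 8 genes on the x axis and for Slc22a8 on the y axis, both on the log2(TPM + 0.1) scale; colours are groups. The mean deviation runs from -1.1 to 1.04, with mice of several groups at both ends.

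The 6 mice left out by the authors were mostly high in these genes. The paper removed them as outliers in a principal components analysis (a summary of the main axes of variation) of highly variable genes in the same data. Extreme values in strongly varying genes were therefore not independent of that removal. Whether the 9 genes were among those used is not stated. Replicate 5 of PFF at 11% O2 had the highest level of all 48 mice for 9 of the 9 genes, at 7.13 to 39.0 times the median of its own group and batch. Replicate 10 of monomer at 21% O2 was above all analysed mice of its group and batch for 9 of 9 genes, at 3.84 to 16.6 times their median. Replicate 12 of monomer at 11% O2 and replicate 2 of PFF at 11% O2, whose library held 3134594 counts, were above all for 9 of 9 genes, replicate 8 of monomer at 11% O2 for 8, and replicate 9 of that group for 0. The summed level of the 9 genes had a median of 3138 TPM in these 6 mice and 1140 TPM in the 42, whereas the summed level of the 5 dopaminergic neuron genes had medians of 1221 and 2354 TPM. Most of the sum of the 9 genes was Ptgds, with medians of 2878 and 1079 TPM. The part of dissection, depth or other factors in these values was not tested.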

How the data were processed

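RNA of whole SN from 48 mice was sequenced. The authors removed ribosomal reads, aligned to mm10 with STAR 2.7.5a, removed duplicates with Picard 2.21.9 and counted reads per gene with featureCounts 2.0.1 without regard to strand. The authors deposited raw counts and TPM for 48 mice, and counts and TPM of 42 mice after batch correction with ComBat-seq, which was given O2 and injection. The corrected counts were taken as counts; the correction used the groups compared here, which can narrow the spread within them, so each contrast was also fitted before correction.

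Group contrasts used edgeR 4.0.16 on the deposited corrected counts (quasi-likelihood test, TMM, filterByExpr, 4 groups in 1 fit); batch contrasts used the deposited counts before correction with group and batch. Standard errors are the estimate over the root of F. Correlations used TPM before correction. Fold changes were not shrunken, and DESeq2 1.42.0 and limma 3.58.1 on log2(TPM + 1) and log2(TPM + 0.1), no filter, 48 mice, batch 1 alone, a replicate block and each mouse left out were alternatives. Each mouse left out of the batch contrasts was chosen after seeing the data. On simulated counts, the O2 contrast in monomer mice recovered 81 of 100 genes changed by 0.5 on the log2 scale and 95 of 100 changed by 1, of 14794 tested. The changed genes were drawn at random from all genes that passed the filter. The biological coefficient of variation was 8.219% for the median gene, but 20.75% to 55.42% for the 9 genes apart from Slc22a8. The recovery therefore cannot be carried over to them, and an uncalled gene among them may have changed.

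All 9 genes are named in every contrast; of the 14 other lists, the called genes with the smallest p, at most 3, are named, and for each gene the 3 most alike by r. The members and lists were chosen with earlier results of these data known. The paper describes matched pairs of mice. Replicate numbers were not taken as those pairs, since r between same-numbered mice had a median of 0.0033. That value cannot show that matching was absent. Each sample is a mouse, so p-values measure the spread between mice. Depth was 12902996 to 17120921 counts, and intervals from counting were not given.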

Additional observations from a re-analysis of the deposited data

Results flagged for a closer look

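In groups of 4 to 10 analysed mice, 12 of 90 sets of values held a mouse far from the others (Dixon's test at the 95% level, which chance passes in about 1 in 20 sets; sets of the 9 genes in 1 mouse are not independent). Replicate 11 of monomer at 11% O2, harvested 98 days after injection, stood apart in batch-corrected TPM for Igf2 (3.772, next 1.898), Slc6a13 (50.36, next 26.76) and Aldh1a2 (39.53, next 21.5), and before correction within batch 3 for Igf2 (3.492 TPM, next 1.101), Slc22a6 (10.77 TPM, next 4.013) and Aldh1a2 (36.6 TPM, next 15.99). Replicate 2 of PFF at 21% O2 stood apart within batch 1 for Dcn (20.55 TPM, next 12.55), Slc6a13 (21.4 TPM, next 8.841), Ptgds (1392 TPM, next 871.1) and Aldh1a2 (19.26 TPM, next 8.067). Lum was high in replicate 8 of PFF at 21% O2 within batch 2 (10.32 TPM, next 4.38), and Ogn in replicate 8 of PFF at 11% O2 (14.59 batch-corrected TPM, next 9.465).

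The mice left out by the authors also held values above all analysed monomer mice at 21% O2. They were removed as outliers on the same data, so these values are not independent of that removal. Replicate 5 of PFF at 11% O2 had 114.4 TPM of Dcn against at most 16.83 in those mice, 45.45 of Lum against 5.689, 231.6 of Ogn against 13.57 and 18.27 of Igf2 against 2.365. It had 273.3 TPM of Slc6a13 against at most 40.14, 95.53 of Slc22a6 against 8.418, 154.4 of Slc22a8 against 17.3, 8131 of Ptgds against 1672 and 284.0 of Aldh1a2 against 22.9.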

How the results depend on the processing

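Beside single mice left out, 71 of 83 counts and correlation summaries and 533 of 622 log2 fold changes kept their direction and their side of the threshold; the cause of the changes below was not tested. For PFF against monomer at 21% O2, 0 instead of 1 of the 9 genes were called without a filter, before correction with 48 mice, in batch 1 alone and in all 3 limma settings. The O2 comparison in PFF mice went from 0 to 1 called with DESeq2. The interaction went from 0 to 1 with DESeq2 and with the replicate block, which changed no other count by more than 1.5 times. Of 54 same-numbered pairs of mice, 21 correlated above 0.1. Differently numbered mice were not set beside them, so whether the numbers pair the mice is not settled. Batch 2 against batch 1 went from 7 to 0, and batch 3 against batch 1 from 6 to 0, in PFF mice at 21% O2 alone, and the latter to 0 with 48 mice as well. The share of all genes called in those settings is not given here.

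Uncalled estimates that changed sign were, for PFF against monomer at 21% O2, -0.0052 for Slc22a6 before correction with 42 mice; -0.49 for Ogn, 0.045 for Igf2, -0.19 for Slc22a6 and -0.085 for Ptgds with 48 mice; and 0.88 for Igf2 and -0.42 for Slc22a6 in batch 1. At 11% O2 they were 0.41 for Ogn, 0.044 for Slc22a6, 0.0020 for Slc22a8, 0.11 for Ptgds and 0.31 for Aldh1a2 with 48 mice, and 0.020 for Igf2 with log2(TPM + 0.1). For O2 in monomer mice they were -0.054 for Dcn, -0.43 for Ogn and -0.25 for Slc22a6 in batch 1, and -0.11 for Igf2 with log2(TPM + 0.1). For O2 in PFF mice they were, with 48 mice, 0.48 for Dcn, 0.46 for Lum, 1.47 for Ogn, 0.72 for Slc6a13, 1.18 for Slc22a6, 0.71 for Ptgds and 1.22 for Aldh1a2; -1.004 for Igf2 in batch 1; 0.017 for Ptgds with the replicate block; 0.052 for Dcn, 0.088 for Ogn and 0.039 for Ptgds with log2(TPM + 1), with or without the filter at 1 TPM; and 0.068 for Dcn, 0.16 for Ogn, 0.033 for Slc22a6 and 0.039 for Ptgds with log2(TPM + 0.1). For the interaction they were 0.90 for Ogn, 0.24 for Slc22a6, 0.20 for Ptgds and 0.17 for Aldh1a2 with 48 mice, and 0.038 and 0.27 for Igf2 with the pseudocounts 1 and 0.1. For batch 3 against batch 1 it was -0.043 for Dcn in PFF mice at 21% O2. For batch 3 against batch 2 they were -0.51 for Dcn, -0.71 for Lum, -0.41 for Slc22a8 and -0.53 for Ptgds with 48 mice; -0.28 for Dcn, -0.20 for Lum and -0.26 for Ptgds in PFF mice at 21% O2; -0.0034 for Ptgds with DESeq2, -0.00016 without a filter, and -0.011 for Lum with log2(TPM + 1).

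With each mouse left out, genes called ranged from 0 to 1 for PFF at 21% O2, the O2 comparison in PFF mice and the interaction, from 3 to 7 for batch 2 against batch 1 and from 3 to 9 for batch 3 against batch 1. Estimates that changed sign ran, for PFF at 21% O2, from -0.023 to 0.26 for Ogn, -0.56 to 0.14 for Igf2, -0.074 to 0.47 for Slc6a13, -0.10 to 0.41 for Slc22a6, -0.0099 to 0.16 for Ptgds and -0.044 to 0.34 for Aldh1a2. For PFF at 11% O2 they ran from -0.52 to 0.32 for Igf2. For O2 in monomer mice they ran from -0.47 to 0.43 for Igf2, -0.20 to 0.44 for Slc22a6 and -0.064 to 0.41 for Aldh1a2. For O2 in PFF mice they ran from -0.19 to 0.057 for Dcn, -0.26 to 0.032 for Ogn, -0.23 to 0.41 for Igf2 and -0.058 to 0.081 for Ptgds. For the interaction they ran from -0.37 to 0.52 for Igf2. For batch 3 against batch 2 they ran from -0.056 to 0.22 for Dcn, -0.20 to 0.25 for Lum, -0.20 to 0.028 for Ogn, -0.38 to 0.071 for Igf2, -0.21 to 0.077 for Slc6a13, -0.19 to 0.19 for Slc22a6 and -0.037 to 0.086 for Ptgds. The shallow library of 3134594 counts is 1 of the 48 mice. Igf2 did not pass the filter at a mean of 1 TPM or the filter in PFF mice at 21% O2 alone, and gave no value there.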
